A study of Mus musculus with 23 samples.

Results

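The parent lines PSC5 and PSC4 of mouse pancreatic stellate cells (PSCs) were compared after growth with the same tumour organoid line, T6-LOH. The comparison uses 6 of the 23 RNA-seq libraries of the series, chosen as the PSC-fraction libraries of co-cultures with T6-LOH. PSC5 is represented by the library of its Rosa cells and of its knockout clones C5 and D4, and PSC4 by that of its Rosa cells and of its knockout clones A3 and B4. Rosa cells are Egfr wild type in the labels and KO clones are Egfr knockouts, so 1 of 3 libraries of each line is wild type and genotype (Rosa or KO) was a covariate in each fit. The cells spent 3.5 days together in Matrigel, in a medium described as reduced or control, before flow sorting gave a PSC and an organoid fraction. PSC5 was grown with T6-LOH only, whereas PSC4 was also grown with organoid lines T12-LOH and T69A. These add 6 more PSC4 libraries to a series with 12 PSC libraries in all. Each parent is 1 line and each KO is 1 clone, and separate cultures per library are not mentioned in the labels. The p-values therefore measure only the spread between these libraries, technical or between clones, and say nothing of other stellate cell lines. Unless the other organoid lines or all 9 are named, PSC4 libraries are those with T6-LOH.

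Pancreatic stellate cells are mesenchymal cells of the pancreas that store vitamin A when quiescent. When activated they lay down collagen, secrete proteases and growth factors, and are a source of fibroblasts around a pancreatic tumour. Mesenchymal cells also keep a record of the body region they came from in the Hox genes and other homeodomain factors, and they respond to type I interferon by turning on antiviral and antigen-presentation genes.

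The libraries held 22317538 to 29867386 estimated counts, mitochondrial transcripts took 2.08 to 2.9% of counts, and no pair of libraries of a line agreed within sampling noise. Principal component 1 (37.8% of the variance) set the 3 PSC5 libraries, at -30.3, -31.4 and -29.5, apart from the PSC4 libraries, at 11.7, 37.9 and 41.6. Principal component 2 (26.8%) set the PSC4 clone B4, at -47.3, apart from the other PSC4 libraries, at 32.6 and 29.8. In Pearson correlation of log2 CPM (counts scaled to a common library total) across genes, the PSC5 Rosa and PSC4 Rosa libraries correlated at 0.974, whereas clone B4 and the other PSC4 libraries correlated at 0.959 and 0.964.

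The cell type labels were checked against marker genes. Of 23 pan-fibroblast markers, 22 had enough counts to be tested, and the summed level of the list was 15840 to 31570 CPM in PSC5 and 24110 to 27700 CPM in PSC4. Pdgfra, a receptor for platelet-derived growth factor found on fibroblasts, stood at 629, 741 and 472 CPM in PSC5, against 839, 746 and 709 CPM in PSC4. Pdgfrb, its relative, stood at 424, 209 and 405 CPM in PSC5, against 322, 334 and 342 CPM in PSC4, so the lines overlapped for both receptors. Of 14 stellate cell and quiescence markers, 9 had at least 10 counts in every library. That list summed to 547 to 668 CPM in PSC5 and 458 to 581 CPM in PSC4. Lrat, the enzyme that esterifies vitamin A and defines quiescent stellate cells, was the 1 member with 0 counts in all 6 libraries. Des, the muscle-type filament desmin that marks stellate cells, was low, at 5.31, 3.47 and 8.98 CPM in PSC5, against 0.694, 1.19 and 3.36 CPM in PSC4. Acta2, smooth muscle actin of activated stellate cells, stood at 266, 254 and 513 CPM in PSC5, against 299, 423 and 629 CPM in PSC4, with the lines overlapping. Of 11 immune markers, Ptprc, Adgre1, Itgam and Tyrobp had 0 counts in all 6 libraries, and 2 had at least 10 counts in every library. The immune list summed to 6.32 to 9.65 CPM in PSC5 and 6.59 to 8.11 CPM in PSC4. Of 13 acinar and endocrine markers, 8 had 0 counts in all 6 libraries and 1 had at least 10 in every library. That list summed to 10.7 to 17.3 CPM in PSC5 and 11.0 to 14.3 CPM in PSC4.

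RNA of the organoid cells in the PSC fraction was low and was lower in PSC5. The median level of epithelial markers was 0.0602, 0.107 and 0.0645% of that in the paired organoid library in PSC5, against 0.222, 0.146 and 0.149% in PSC4. The 24 epithelial markers summed to 106 to 189 CPM in PSC5 and 206 to 344 CPM in PSC4. That sum does not measure organoid RNA alone. The highest marker of each library stood at 1.24 to 2.27% of its organoid level, far above the medians. For Krt19 the organoid RNA predicted from the medians was 6.73 to 17.3% of the level in the PSC libraries. Krt8, a keratin of simple epithelia, stood at 1.57, 2.5 and 1.91 CPM in PSC5, against 6.94, 3.06 and 4.64 CPM in PSC4. In bulk libraries, fewer cells of a type and less RNA per cell cannot be told apart. The organoid RNA that these shares predict would make up over 10% of the level in any library for 7 of the 113 genes open to naming, among them Fzd6, Btc, Cdh3, Epcam, Krt19 and Krt8.

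Egfr, the edited gene, was reported by its mRNA in every library. It stood at 429, 113 and 352 CPM in PSC5 (Rosa, C5 and D4), against 286, 59.3 and 118 CPM in PSC4 (Rosa, A3 and B4). Each KO clone was below the Rosa library of its own parent, and clone D4, at 352 CPM, was above PSC4 Rosa. The lines overlapped, and the log2 fold change of PSC5 over PSC4 was 1.12 (SE 0.495, edgeR adjusted p = 0.417). Transcripts of an edited allele are counted too, so mRNA tests the KO labels in part only.

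Across the transcriptome, 2 of 14236 tested genes rose in PSC5 relative to PSC4, and they are neighbours. Tmem176a and Tmem176b encode related membrane proteins of intracellular vesicles. Tmem176a stood at 290.3, 273 and 274 CPM in PSC5, against 21.5, 16.2 and 21.4 CPM in PSC4. Tmem176b stood at 322, 372 and 295 CPM in PSC5, against 31.2, 24.00 and 31.99 CPM in PSC4. Within each line the 3 libraries lay close together, and the lowest PSC5 library was well above the highest PSC4 library for both genes. The log2 fold change of Tmem176a was 3.83 (SE 0.154, 14.2-fold, edgeR quasi-likelihood test with Benjamini-Hochberg adjusted p = 0.0042). That of Tmem176b was 3.50 (SE 0.181, 11.3-fold, adjusted p = 0.00927). Per length they averaged 404 and 525 TPM (length-scaled transcript abundance) in PSC5, against 28.6 and 44.1 TPM in PSC4. In the 6 PSC4 libraries with the other organoid lines Tmem176a lay between 34.2 and 107 CPM and Tmem176b between 53.02 and 157 CPM, above PSC4 with T6-LOH and still below every PSC5 library. The calls were 0 when the PSC5 Rosa, PSC5 D4 or PSC4 Rosa library was left out and 1 without PSC4 A3. Their log2 fold changes kept their sign under every alternative fit run.

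The genes lie head to head on chromosome 6. Promoter windows (250 bases before to 50 after the start, RefSeq, GRCm38.p6) number 2 for Tmem176a and 3 for Tmem176b. The first listed window of each gene is used here. The start sites of these windows are 346 bases apart, so the windows share 155 bases, at chr6:48841233-48841387. The window of Tmem176a, on the plus strand at chr6:48841233-48841532, is shown because both genes that passed the test start around it. Capitals mark the shared bases.
Tmem176a: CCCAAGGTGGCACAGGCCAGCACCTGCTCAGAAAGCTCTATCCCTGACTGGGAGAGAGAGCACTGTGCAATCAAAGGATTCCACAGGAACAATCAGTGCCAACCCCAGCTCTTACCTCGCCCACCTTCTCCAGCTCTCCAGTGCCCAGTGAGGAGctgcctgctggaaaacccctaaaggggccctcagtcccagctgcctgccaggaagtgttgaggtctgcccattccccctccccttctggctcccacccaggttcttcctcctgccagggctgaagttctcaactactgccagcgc

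Of all tests the edgeR fit of 6 libraries called 0.014% of genes higher and 0% lower in PSC5, with 3 residual degrees of freedom. At an unadjusted p under 0.05 it listed 974 genes higher and 823 lower. DESeq2 on the same libraries called 361 of 13960 genes higher (2.59%) and 245 lower (1.76%). An edgeR fit of all 12 PSC libraries, with organoid line as a further term, called 62 of 14756 higher (0.42%) and 48 lower (0.325%). It counts 3 libraries of each PSC4 clone as separate, although libraries of 1 clone correlated at 0.714 after the fit. With clone as a random effect, limma called 4 genes higher (0.0271%) and 3 lower (0.0203%), and all 7 were also called by edgeR in the 12 libraries. The median log2 fold change of all genes was -0.0037, and the median of its absolute size was 0.229. A gene is said below to stand apart when its 3 PSC5 CPM values were all on one side of its 3 PSC4 values and its fitted fold change was at least 2. By that description 377 genes stood apart above (2.65%) and 276 below (1.94%), and 1562 (11%) and 1451 (10.2%) did not overlap whatever their fold. All of the 9 PSC4 libraries were cleared by 206 of the genes above and 101 of those below. Gene lists are given by such counts, and the members not called by edgeR in the 6 libraries did not pass the test.

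**Figure D1:**
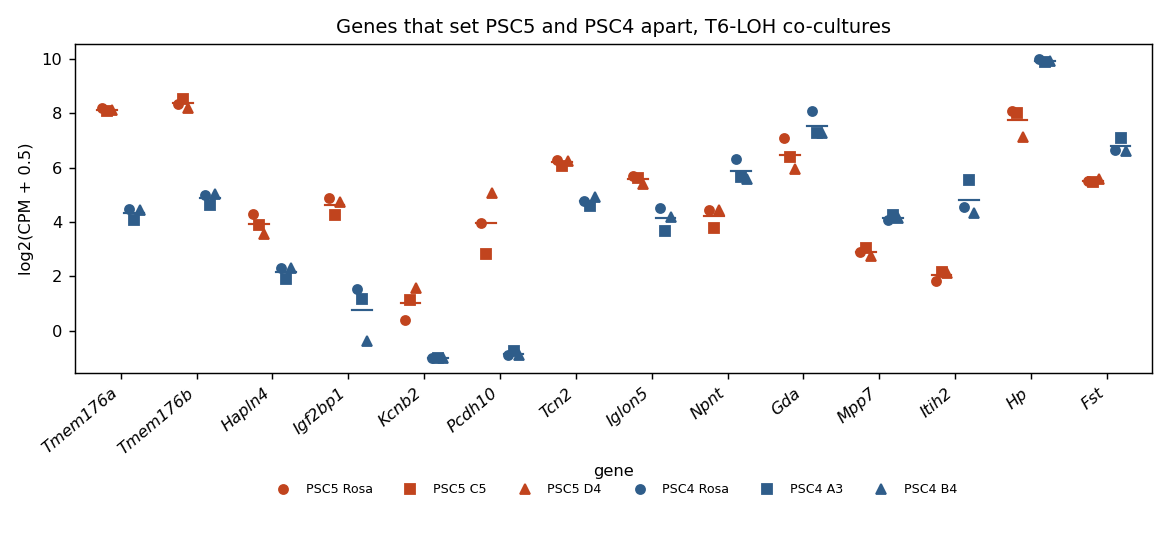
Levels of 14 genes as log2(CPM + 0.5) in the 3 PSC5 libraries (left of each pair, orange) and the 3 PSC4 libraries (right, blue). Circles are Rosa libraries, squares clones C5 or A3, triangles clones D4 or B4, and bars are means of 3 libraries. In each gene shown the lines do not overlap.

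The 7 genes of the clone model were, in addition to Tmem176b, Hapln4, Igf2bp1 and Kcnb2 above and Npnt, Mpp7 and Gda below, each with an adjusted p of 0.0481 by limma. Tmem176a narrowly missed the threshold in that model (limma adjusted p = 0.0523). Hapln4, a link protein that ties hyaluronan to proteoglycans, stood at 19.1, 14.3 and 11.2 CPM in PSC5, against 4.51, 3.19 and 4.41 CPM in PSC4. Igf2bp1, an RNA-binding protein of embryonic tissues, stood at 29.1, 18.4 and 26.3 CPM in PSC5, against 2.39, 1.73 and 0.264 CPM in PSC4. Its 3 PSC5 libraries were close together and clone B4 was the lowest PSC4 library. Kcnb2, a voltage-gated potassium channel subunit, stood at 0.822, 1.7 and 2.45 CPM in PSC5 and had 0 counts in the 3 PSC4 libraries, which makes it at least 42.1-fold higher if 3 counts over the group are taken as the floor. Npnt, the basement membrane protein nephronectin, stood at 21.1, 13.1 and 20.96 CPM in PSC5, against 79.2, 50.5 and 47.9 CPM in PSC4. The other PSC4 libraries reached down to 8.03 CPM, so Npnt was not outside the range of all 9 PSC4 libraries. Gda, the guanine deaminase, stood at 135, 82.9 and 61.4 CPM in PSC5, against 274, 154 and 153 CPM in PSC4. Mpp7, a scaffold of cell polarity complexes, stood at 6.91, 7.64 and 6.24 CPM in PSC5, against 16.4, 18.5 and 17.4 CPM in PSC4, and its range within each line was narrow. The log2 fold changes in the 6 libraries were 1.86 (SE 0.238) for Hapln4, 4.18 (SE 0.646) for Igf2bp1, -1.66 (SE 0.213) for Npnt, -1.07 (SE 0.145) for Gda and -1.33 (SE 0.174) for Mpp7, with edgeR adjusted p of 0.203 to 0.218.

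Other genes with a small unadjusted p had adjusted p between 0.169 and 0.209 in edgeR. Tcn2, which carries vitamin B12 in blood, stood at 77.7, 65.4 and 75.2 CPM in PSC5, against 27.1, 23.9 and 29.6 CPM in PSC4 (log2 fold change 1.44, SE 0.144, edgeR adjusted p = 0.169). Pcdh10, a cadherin-family adhesion protein, stood at 15.1, 6.51 and 32.8 CPM in PSC5, against 0.0347, 0.0912 and 0.0377 CPM in PSC4, and was thus close to undetected in PSC4. Arc, an immediate-early gene known from neurons, stood at 43.8, 41.9 and 38.1 CPM in PSC5, against 19.8, 14.8 and 9.54 CPM in PSC4. For Arc and Tcn2 the 3 PSC5 libraries lay within a narrow band. Hp, the haemoglobin scavenger haptoglobin and an acute-phase protein, stood at 271, 259 and 141 CPM in PSC5, against 1021, 935 and 974 CPM in PSC4. It reached 1888 to 7273 CPM in the PSC4 libraries with other organoid lines, still farther from PSC5. Fst, follistatin, a secreted antagonist of activin, stood at 44.5, 43.96 and 47.6 CPM in PSC5, against 99.6, 136 and 98.1 CPM in PSC4. Itih2, a hyaluronan-associated inhibitor chain, stood at 3.03, 4.01 and 3.87 CPM in PSC5, against 23.2, 45.7 and 19.4 CPM in PSC4. Cd24a, a surface glycoprotein, stood at 30.5, 68.3 and 95.9 CPM in PSC5, against 106, 182 and 257 CPM in PSC4. The groups did not overlap for any of these 7 genes, although the other PSC4 libraries went as low as 32.7 CPM for Cd24a and 1.3 CPM for Itih2. For Arc the other PSC4 libraries reached 38.08 CPM, just under the lowest PSC5 library, at 38.14 CPM. Enpp2, autotaxin, which makes lysophosphatidic acid, was among the genes of highest CPM that did not overlap and differed at least 2-fold, at 886, 1679 and 1642 CPM in PSC5, against 581, 638 and 217 CPM in PSC4 (edgeR adjusted p = 0.34).

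The Hox genes, which record position along the body axis by cluster and paralog number, differed by cluster. Of 39 listed, 30 were tested, and the list's median log2 fold change was -0.128. Standing apart were 2 above (6.67% of those tested, Hoxb5 and Hoxb7) and 7 below (23.3%, Hoxa11, Hoxa13, Hoxc8 and Hoxc10 to Hoxc13), against 2.65 and 1.94% of all genes. All but Hoxc8 were also outside the range of the 9 PSC4 libraries. DESeq2 called 3 above and 5 below, against 2.59 and 1.76% of all genes. In 12 libraries edgeR called 1 above and 4 below, against 0.42 and 0.325% of all genes. None of those 5 passed with clone as a random effect, where limma gave adjusted p of 0.0538 for Hoxa11, 0.0548 for Hoxc11 and Hoxc12, 0.0596 for Hoxc13 and 0.171 for Hoxb7. The high-numbered HoxC genes 10 to 13 were below in 4 of 4. The HoxB genes 2 to 9 were positive in 8 of 8, at 0.42 to 1.05, and did not overlap in 6. HoxA genes 1 to 9 were positive in 4 of 8 and did not overlap in 1. Of all tested genes, 11% were above and 10.2% below without overlap. The HoxB cluster lies on chromosome 11, where 30.9% of 877 expressed protein-coding genes were above without overlap.

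Hoxc11 had 0 counts in the 3 PSC5 libraries, against 6.73, 9.67 and 5.05 CPM in PSC4, so it was at least 188-fold lower in PSC5 with the floor of 3 counts over the group. Hoxc12 had 3 counts over the PSC5 libraries and 4.2, 6.43 and 4.68 CPM in PSC4, a ratio of PSC4 to PSC5 of 135 with a 95% counting interval of 45.7 to 655. Hoxc13 stood at 1.87, 3.77 and 1.79 CPM in PSC5, against 6.66, 11.5 and 11.4 CPM in PSC4. In these 3 HoxC genes every PSC5 library was below every PSC4 library. In the same cluster Hoxc10 stood at 0.411, 0.0668 and 0 CPM in PSC5, against 5, 12.96 and 1.09 CPM in PSC4, with clone B4 the lowest PSC4 library. Hoxa11 stood at 0.299, 0.0668 and 0 CPM in PSC5, against 8.74, 9.4 and 17.3 CPM in PSC4. Its neighbour Hoxa10 overlapped between the lines, at 23.5, 25.6 and 29.5 CPM in PSC5 and 27.5, 30.8 and 27.01 CPM in PSC4 (log2 fold change -0.12, SE 0.14). Hoxb7 stood at 17.6, 14.8 and 16.5 CPM in PSC5, against 8.22, 7.21 and 8.26 CPM in PSC4. Hoxb9 stood at 151, 203 and 200.3 CPM in PSC5, against 129.5, 134 and 128 CPM in PSC4. The edgeR adjusted p of the Hox genes was 0.15 at the smallest, for Hoxc12.

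**Figure D2:**
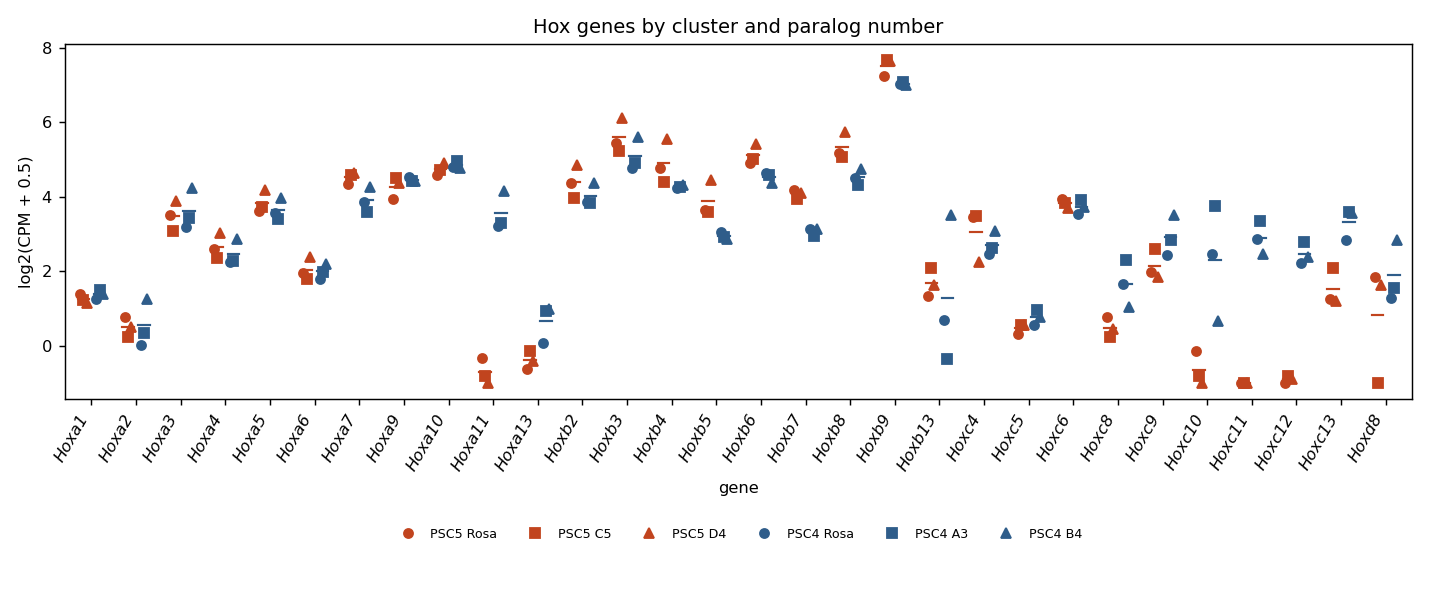
All 30 tested Hox genes as log2(CPM + 0.5), ordered by cluster (A, B, C, D) and paralog number, with PSC5 left of PSC4 and bars for means of 3 libraries. Hoxc11 lies at the floor in PSC5, Hoxa11, Hoxc10 and Hoxc12 are below every PSC4 library, and most HoxB genes are slightly above PSC4.

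Other regional transcription factors differed in both directions. Of 53 tested, 3 stood apart above (5.66%, against 2.65% of all genes) and 3 below (5.66%, against 1.94%). Nkx2-5, a homeodomain factor of heart, spleen and pyloric mesenchyme, stood at 3.74, 5.94 and 18.4 CPM in PSC5, against 0.763, 0.547 and 0.264 CPM in PSC4. Its relative Nkx2-3, of gut and spleen mesenchyme, had 0 counts in the 3 PSC5 libraries, against 5.93, 0.365 and 1.02 CPM in PSC4, which is at least 71.8-fold lower over the group and rests mostly on PSC4 Rosa. Irx1, an Iroquois homeodomain factor, stood at 25.4, 23.6 and 7.36 CPM in PSC5, against 1.53, 0 and 0 CPM in PSC4. In PSC4 it was detected in the Rosa library alone of the 3. Gata4, a zinc finger factor of endoderm, heart and visceral mesenchyme, stood at 3.29, 7.74 and 5.28 CPM in PSC5, against 19.2, 18.8 and 47.7 CPM in PSC4. DESeq2 gave adjusted p of 1.16e-05 for Nkx2-5, 0.00157 for Irx1 and 8.93e-07 for Gata4, and edgeR on the 6 libraries 0.255, 0.255 and 0.218. Barx1, a factor of stomach mesenchyme, stood at 53.7, 84.9 and 12.8 CPM in PSC5, against 35.05, 0.228 and 0.189 CPM in PSC4. Its PSC4 Rosa level was within the PSC5 range, and the gap lies between the KO clones.

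Interferon-stimulated genes had the highest list median. All 37 listed were tested and all 37 had a positive log2 fold change, with a median of 1.71. Standing apart above were 9 (24.3%, against 2.65% of all genes), namely Ifi27l2a, Igtp, Iigp1, Irgm1, Oas1a, Oas2, Oas3, Oasl1 and Xaf1. DESeq2 called 28 higher, against 2.59% of all genes, whereas edgeR called 0 in 6 libraries (smallest adjusted p 0.218) and 0 in 12. The median deviation from the 6-library mean was 1.64, 1.19 and -0.38 on the log2 scale in PSC5, against 0.06, -1.40 and -0.84 in PSC4. PSC5 Rosa and C5 were thus high, A3 was lowest, and clone D4 was below PSC4 Rosa for 27 of the 37 genes. Without D4, 33 genes stood apart, and without PSC4 Rosa 27 did. Fewer libraries make it easier for any gene to stand apart. Over all genes the count above also rose from 377 with any 1 library left out, as given in the last section. Against all 9 PSC4 libraries, Iigp1 was the 1 gene of the list that stood apart and outside their range.

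Oas2 and Oas3 make 2′-5′ oligoadenylates that activate an RNase against viral RNA. Oas3 stood at 91.1, 42.3 and 7.07 CPM in PSC5, against 4.48, 0.639 and 2.68 CPM in PSC4 (log2 fold change 4.04, SE 0.83, DESeq2 adjusted p = 1.19e-06, edgeR adjusted p = 0.255). Oas2 stood at 182, 132 and 17.7 CPM in PSC5, against 6.32, 0.456 and 4.49 CPM in PSC4. Both were higher in D4 than in the 3 PSC4 libraries with T6-LOH, whereas other PSC4 libraries reached 8.79 CPM for Oas3 and 26.9 CPM for Oas2, above D4. Isg15, a ubiquitin-like protein, stood at 339, 234 and 69.8 CPM in PSC5, against 123, 36.00 and 49.4 CPM in PSC4, with D4 below PSC4 Rosa. Irf7, the factor that amplifies type I interferon production, stood at 301, 146 and 48.1 CPM in PSC5, against 80.95, 26.7 and 29.8 CPM in PSC4. For Irf7, too, D4 lay within the PSC4 range. Iigp1, an immunity-related GTPase, stood at 212, 158 and 124 CPM in PSC5, against 40.4, 11.5 and 36.4 CPM in PSC4. Oas, Ifit and H2-Q genes have close paralogs among which a transcript model can divide reads, so their single values are uncertain.

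Of the genes named under other rules, Tlr3, Trim30a and Ccl5 are also known from this response, and none of them passed the edgeR test. Tlr3, the endosomal receptor for double-stranded RNA, stood at 39.7, 34.4 and 17.2 CPM in PSC5, against 12.1, 6.75 and 5.88 CPM in PSC4 (log2 fold change 1.92, SE 0.291, edgeR adjusted p = 0.211). Trim30a, an interferon-induced regulator of Toll-like receptor signalling, stood at 146, 118 and 77.6 CPM in PSC5, against 50.5, 12.6 and 18.7 CPM in PSC4. Ccl5, a chemokine that attracts T cells, stood at 67.1, 64.7 and 22.8 CPM in PSC5, against 18.5, 7.98 and 8.98 CPM in PSC4. The lines did not overlap for these 3 genes with T6-LOH, and D4 was the lowest PSC5 library for each. Other PSC4 libraries reached 20.1 CPM for Tlr3, 81.7 CPM for Trim30a and 36.2 CPM for Ccl5, above D4. Ifnb1, which encodes interferon beta, had 7, 15 and 0 counts in PSC5, against 2, 0 and 0 in PSC4. Ifna4, an interferon alpha gene, had 6, 6 and 0 counts in PSC5, against 4, 0 and 0 in PSC4. Counts this low are near the limit of detection.

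MHC class I molecules display peptides to cytotoxic T cells. The genes listed for MHC class I and antigen presentation were positive in 20 of 20 tested, with a median log2 fold change of 1.22. The list also holds Cd274 (PD-L1), which does not present peptides, and H2-T10, annotated as a polymorphic pseudogene. Both are among those counted as apart. Standing apart above were 12 (60%, against 2.65% of all genes), and DESeq2 called 10 higher, against 2.59% of all genes. In 12 libraries edgeR called H2-K1 and H2-Q7, against 0.42% of all genes called higher, and 0 members were outside the range of all 9 PSC4 libraries. With clone as a random effect neither passed (limma adjusted p = 0.168 for H2-K1 and 0.216 for H2-Q7). H2-K1, a classical class I heavy chain, stood at 797, 630.2 and 222 CPM in PSC5, against 169, 43.02 and 96.5 CPM in PSC4. B2m, the light chain of class I, stood at 1631, 1549.5 and 1005 CPM in PSC5, against 774, 506 and 689.9 CPM in PSC4 (log2 fold change 1.09, SE 0.213, edgeR adjusted p = 0.248). Tap1, which pumps peptides into the endoplasmic reticulum, stood at 127, 105 and 51.9 CPM in PSC5, against 38.00, 21.3 and 49.3 CPM in PSC4. PSC5 D4 was the lowest PSC5 library and A3 the lowest PSC4 library for H2-K1, B2m and Tap1. Other PSC4 libraries reached 459 CPM for H2-K1 and 1233 CPM for B2m, within the PSC5 range.

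The organoid fractions of the same 6 co-cultures had the medians of the interferon-stimulated genes in the same order. Their median deviation was 2.15, 1.29 and -0.94 in organoids grown with PSC5 Rosa, C5 and D4, against -0.33, -1.10 and -1.01 in those grown with PSC4 Rosa, A3 and B4. For MHC class I genes the medians were 0.78, 0.35 and -0.22 with PSC5, against -0.19, -0.40 and -0.29 with PSC4. In organoids Isg15 stood at 48.3, 27.4 and 1.64 CPM with PSC5, against 4.09, 0.821 and 1.23 CPM with PSC4. For Isg15 these levels were below those of the PSC fraction in each co-culture. Oas3 in organoids stood at 82.2, 45.6 and 1.71 CPM with PSC5, against 6.17, 0.958 and 1.58 CPM with PSC4, above the PSC level in 3 of the 6 co-cultures, and Oasl1 was higher in each organoid library than in its PSC library. At the organoid shares given above, organoid RNA would make up at most 0.0125% of the PSC level of Isg15 and 0.307% of that of Oas3. The labels give the medium as reduced or control without naming it per library, so its part was not tested.

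**Figure D3:**
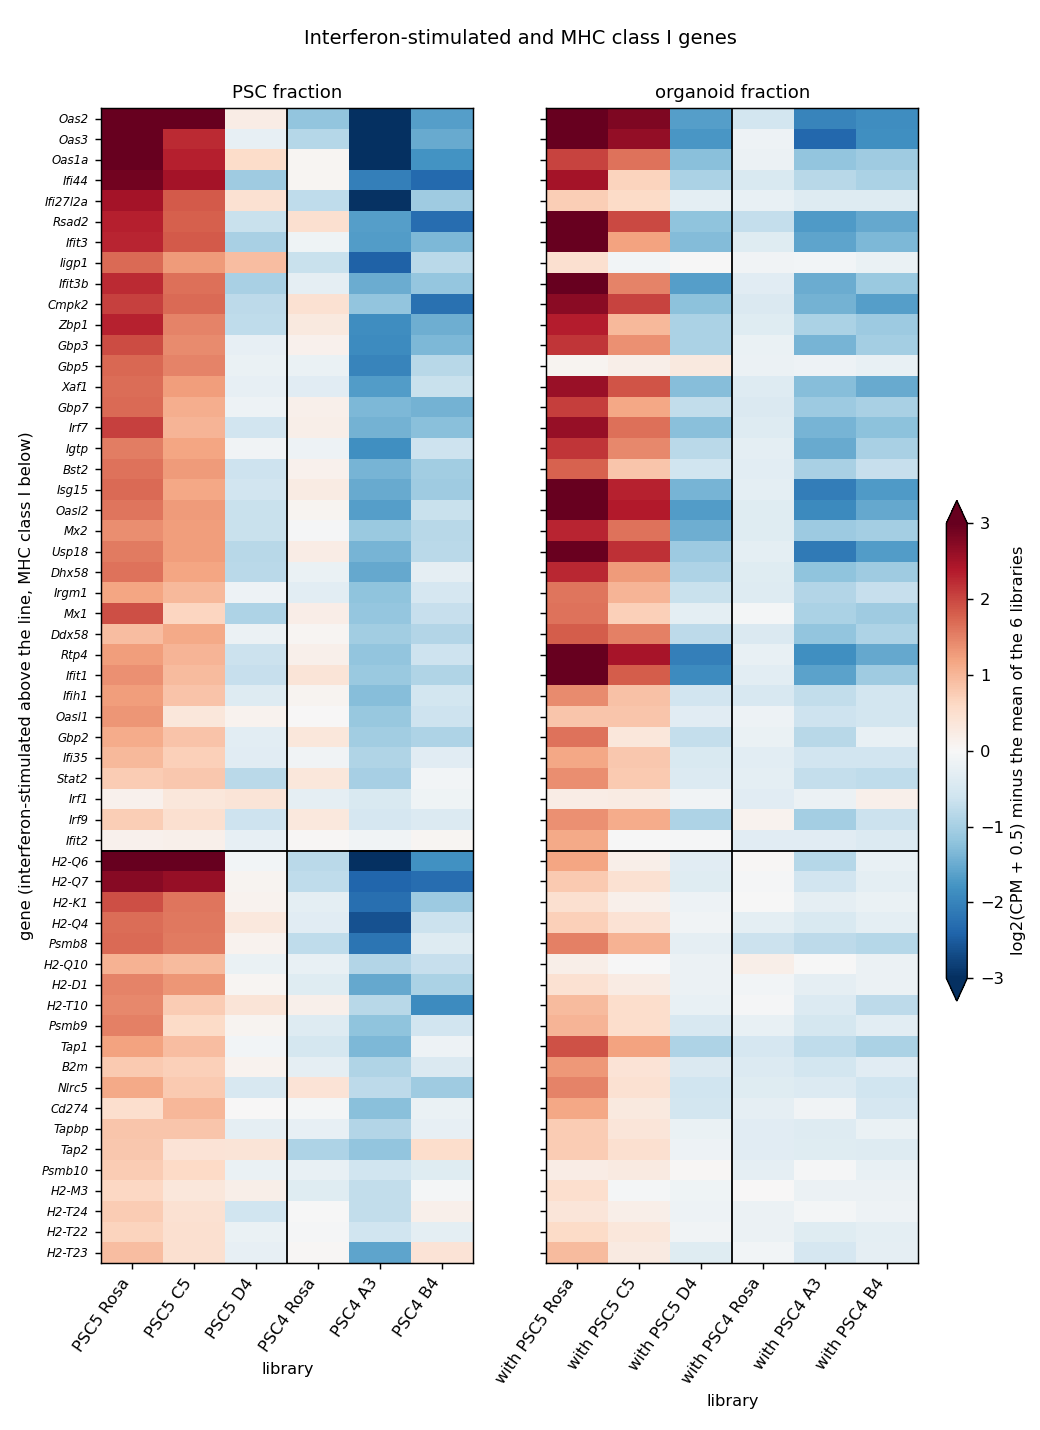
36 interferon-stimulated genes (above the line) and MHC class I genes (below it) in PSC libraries (left) and in organoid libraries of the same co-cultures (right), with PSC5 co-cultures left of PSC4 ones. Colour is log2(CPM + 0.5) minus the mean of the 6 libraries of that fraction, capped at 3 in each direction. PSC5 Rosa and C5 are high in both fractions and D4 is near or below the mean for most interferon-stimulated genes.

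The sequence at these promoters was read from the RefSeq windows. A core of the element that interferon-activated transcription factors bind, namely GAAA, then 2 bases of any kind, then GAAA, was searched on both strands, with overlapping matches counted. It was in 17 of the 27 interferon-stimulated genes with a window (63.0%) and in 3 of 16 MHC class I genes (18.8%), against 1079 of all 27025 genes with a window (3.99%) and 386 of the 10255 tested genes with a window (3.76%). It was not in the window of Tmem176a or Tmem176b. The windows of Irf7, H2-K1 and Tap1, whose levels are given above, held 0 matches. Stretches around the matches, in capitals, are shown for genes with a match whose levels are given here, on GRCm38.p6 and on the strand of the gene. They are Oas3 (chr5:120777700-120777759, minus strand), Isg15 (chr4:156200850-156200921, minus), Ifit3 (chr19:34583348-34583441, plus), Trim30a (chr7:104465195-104465254, minus) and B2m (chr2:122147523-122147582, plus). Isg15 holds 3 overlapping matches, and the matches of Ifit3 and Trim30a are of the reverse complement.
Oas3: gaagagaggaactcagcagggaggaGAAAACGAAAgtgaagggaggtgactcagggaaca
Isg15: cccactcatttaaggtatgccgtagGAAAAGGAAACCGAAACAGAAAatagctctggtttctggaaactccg
Ifit3: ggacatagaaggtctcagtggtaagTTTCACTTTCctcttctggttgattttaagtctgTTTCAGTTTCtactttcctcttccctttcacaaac
Trim30a: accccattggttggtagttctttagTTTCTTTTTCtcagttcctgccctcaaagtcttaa
B2m: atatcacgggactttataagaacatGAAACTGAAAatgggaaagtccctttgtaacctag
Ifit3, an antiviral protein that binds foreign RNA with its relatives, stood at 256, 186 and 26.2 CPM in PSC5, against 47.8, 15.9 and 20.2 CPM in PSC4, with D4 inside the PSC4 range.

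Matrix genes differed by class. Of 50 tested extracellular proteases and inhibitors, 8 stood apart above (16%, against 2.65% of all genes) and 0 below. They were Adam23, Adamts15, Adamts9, Ctsk, Htra1, Mmp12, Mmp9 and Tfpi, and DESeq2 called 7 of the list higher, against 2.59% of all genes. Of these 8, 6 were outside the range of all 9 PSC4 libraries. The list's median log2 fold change was -0.016, so most members did not share that direction. Mmp9, a gelatinase, stood at 94.3, 34.5 and 29.1 CPM in PSC5, against 4.55, 2.87 and 8.3 CPM in PSC4. Htra1, a secreted serine protease, stood at 102, 106 and 112 CPM in PSC5, against 15.5, 8.35 and 35.7 CPM in PSC4, with PSC5 values close together. Adam23, a disintegrin-like protein without protease activity, stood at 8.3, 7.24 and 7.11 CPM in PSC5, against 0.486, 0 and 0 CPM in PSC4. In PSC4 with T6-LOH it was thus detected in the Rosa library alone. Ctsk, the collagen-cleaving cathepsin K, stood at 4.11, 3.14 and 11.1 CPM in PSC5, against 1.25, 0.776 and 0.339 CPM in PSC4. Tfpi, the inhibitor of tissue factor, stood at 39.2, 52.9 and 44.7 CPM in PSC5, against 22.97, 25.6 and 16.6 CPM in PSC4. DESeq2 gave adjusted p of 3.22e-07 for Mmp9, 4.04e-05 for Htra1 and 0.00176 for Tfpi, and edgeR 0.232, 0.257 and 0.255. Mmp2, another gelatinase, overlapped, at 56.8, 7.78 and 16.3 CPM in PSC5 and 103, 38.3 and 223 CPM in PSC4.

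The main chains of types I and III collagen, which form fibrils, overlapped between the lines and varied between clones. Col1a1, a chain of type I collagen, stood at 8364, 3174 and 6332 CPM in PSC5, against 6458, 8117 and 7739 CPM in PSC4. Its partner chain Col1a2 stood at 1440.0, 3.04 and 36.98 CPM in PSC5, against 1488, 697 and 3497 CPM in PSC4. The Rosa libraries of both lines were close for Col1a2, whereas C5 and D4 were far below (log2 fold change of the lines -5.20, SE 2.36, edgeR adjusted p = 0.427). Col3a1, of type III collagen, was low in C5 alone, at 3972, 379.7 and 3129 CPM in PSC5, against 2806, 3416 and 1337 CPM in PSC4. Of 28 tested collagens, 1 stood apart above (Col7a1, 3.57%) and 2 below (Col10a1 and Col24a1, 7.14%), against 2.65 and 1.94% of all genes. Col12a1, a collagen that coats fibrils, was also apart, at 669.7, 506 and 1034 CPM in PSC5, against 295, 449.9 and 227 CPM in PSC4, and is counted among the myofibroblast genes.

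Proteoglycans and matricellular proteins stood apart above for 2 of 36 tested (5.56%, Ecm1 and Hapln4) and below for 5 (13.9%, Fbln5, Mfap5, Ogn, Smoc2 and Sparcl1). The shares of all genes were 2.65 and 1.94%. Ecm1, a secreted glycoprotein of the matrix, stood at 423, 334 and 450.2 CPM in PSC5, against 226, 202 and 119.9 CPM in PSC4. Fbln5, an elastic fibre protein, stood at 41.8, 35.4 and 42.97 CPM in PSC5, against 96.3, 96.9 and 67.8 CPM in PSC4. Neither gene overlapped between the lines. Mfap5, a microfibril protein, stood at 2.77, 0.634 and 0.582 CPM in PSC5, against 9.75, 13.7 and 6.94 CPM in PSC4. Smoc2, a calcium-binding matricellular protein, stood at 0.523, 3.97 and 0.665 CPM in PSC5, against 13.5, 41.2 and 42.5 CPM in PSC4. The 3 genes below overlapped once the other PSC4 libraries were added, since those went down to 24.1 CPM for Fbln5, 1.75 CPM for Mfap5 and 0.608 CPM for Smoc2. Itga2, the collagen-binding integrin chain, was above, at 17.4, 19.9 and 14.4 CPM in PSC5 against 11.5, 4.88 and 4.68 CPM in PSC4, and passed in the 12-library edgeR fit (adjusted p = 0.0497) but not with clone as a random effect (limma adjusted p = 0.122).

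**Figure D4:**
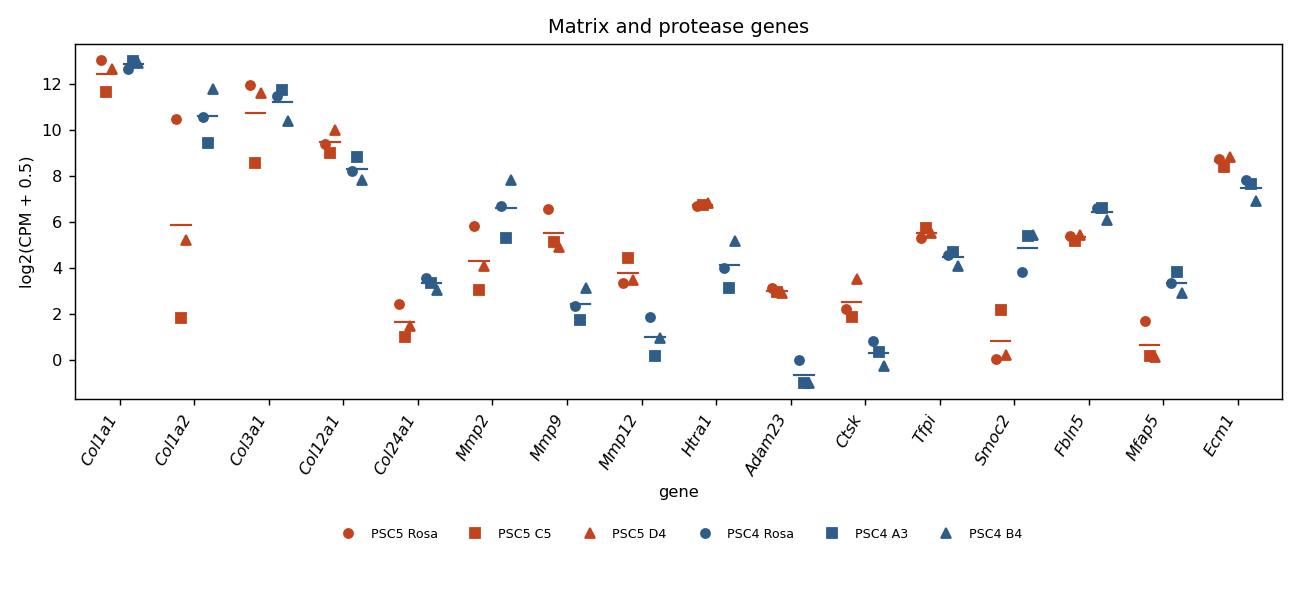
Levels of 16 matrix and protease genes as log2(CPM + 0.5), PSC5 left of PSC4, with bars for means of 3 libraries. Col1a2 and Mmp2 spread widely within PSC5, whereas Htra1, Tfpi and Ecm1 form tight groups above PSC4.

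Signalling genes stood apart in small numbers, which can be set beside 2.65% of all genes above and 1.94% below. Of 41 tested Wnt genes, 1 was apart above (2.44%, Wnt6) and 4 below (9.76%, Dkk1, Dkk3, Fzd6 and Sfrp1). Sfrp1, a secreted Wnt antagonist, stood at 205, 239 and 215 CPM in PSC5, against 509, 714 and 327 CPM in PSC4, and went down to 35.2 CPM in other PSC4 libraries. Of 40 TGF-beta and BMP genes, 2 were apart above (5%, Gdf15 and Gdf6) and 3 below (7.5%, among them Bmpr1b and Fst). Of 16 genes of the EGFR family, its ligands and sheddases, 1 was apart (6.25%, Btc). Hbegf, a ligand of EGFR, stood at 81.7, 79.4 and 77.2 CPM in PSC5, against 71.03, 50.7 and 68.4 CPM in PSC4, without overlap and with a log2 fold change of 0.33 (SE 0.151).

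Chemokines, cytokines and their receptors stood apart above for 6 of 36 tested (16.7%, Ccl5, Csf2, Ctf1, Cxcl9, Il18 and Tnfrsf11b) and below for 2 (5.56%, Ccl20 and Cxcl16). The shares of all genes were 2.65 and 1.94%. Tnfrsf11b, osteoprotegerin, the decoy receptor of RANKL, stood at 58.3, 48.7 and 67.9 CPM in PSC5, against 29.8, 21.8 and 33.8 CPM in PSC4. Cxcl16, a membrane-bound chemokine, stood at 49.1, 41.5 and 21.5 CPM in PSC5, against 76.1, 82.5 and 69.8 CPM in PSC4. Cxcl12, the fibroblast chemokine that retains lymphocytes, stood at 1121, 891 and 1025 CPM in PSC5, against 1242, 2133 and 2859 CPM in PSC4, which did not overlap but was under 2-fold. Of 27 tested genes of inflammatory cancer-associated fibroblasts, 0 stood apart in either direction, and 25 were lower in D4 than in PSC4 Rosa. C3, the central complement protein, stood at 2319, 2438 and 1974 CPM in PSC5, against 1194, 984 and 1479 CPM in PSC4, yet the other PSC4 libraries held 1899 to 4272 CPM. Among myofibroblast and smooth muscle genes 3 of 26 were apart above (11.5%, Actg2, Col12a1 and Igfbp3) and 2 below (7.69%, Col15a1 and Lrrc15), against 2.65 and 1.94% of all genes. Igfbp3, which binds insulin-like growth factors, stood at 127, 53.7 and 82.2 CPM in PSC5, against 16.2, 0.274 and 9.13 CPM in PSC4.

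Of 47 tested axon guidance genes, 2 stood apart above (4.26%, against 2.65% of all genes) and 1 below (2.13%, against 1.94%). The list was thus near the shares of all genes. The 2 above were Robo1 and Robo2, the receptors of Slit proteins, and the 1 below was Ephb2. Robo1 stood at 25.3, 42.96 and 37.4 CPM in PSC5, against 11.3, 7.48 and 1.4 CPM in PSC4. Robo2 stood at 3.06, 3.91 and 4.66 CPM in PSC5, against 1.25, 0.0456 and 0 CPM in PSC4. Both cleared all 9 PSC4 libraries, and PSC4 Rosa was the highest of the 3 PSC4 libraries with T6-LOH for each.

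Sterol and fatty acid synthesis genes were negative in 27 of 31, with a median log2 fold change of -0.46. Hmgcs1 alone stood apart below (1 gene, 3.23%, against 1.94% of all genes). DESeq2 called 7 lower, against 1.76% of all genes, and edgeR called 0. Hmgcs1, which makes the precursor of mevalonate, stood at 236, 153 and 135 CPM in PSC5, against 331, 394 and 304 CPM in PSC4. Insig1, the sterol-regulated anchor of the pathway, stood at 240.0, 222 and 242 CPM in PSC5, against 403, 448 and 355 CPM in PSC4 (log2 fold change -0.77, SE 0.133, DESeq2 adjusted p = 2.89e-05, edgeR adjusted p = 0.22). Clone D4 was below PSC4 Rosa for 31 of 31 genes, and the range of the other PSC4 libraries reached down to 221 CPM for Insig1. Such counts for D4, here and in the lists above, were not taken over all genes. They were 38 of 48 for cell cycle genes and 27 of 32 for glycolysis and hypoxia genes, but 5 of 20 for MHC class I genes. Cell cycle genes did not stand apart in any of 48, with a median of -0.065. Rrm2, the ribonucleotide reductase subunit made in S phase, was the member with the smallest p, at 70.4, 93.8 and 90.9 CPM in PSC5, against 119, 168 and 188 CPM in PSC4, and passed in the 12-library edgeR fit (adjusted p = 0.00851) but not with clone as a random effect (limma adjusted p = 0.0548).

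Whether KO minus Rosa differed between the lines was tested as an interaction. In edgeR 0 of 14894 genes passed (0%), with 264 at an unadjusted p under 0.05 and 2 residual degrees of freedom. DESeq2 called 14 (0.094%). Rgs2, a regulator of G-protein signalling, stood at 10.4, 12.4 and 25.8 CPM in PSC5 (Rosa, C5 and D4), against 20.6, 0.547 and 0.113 CPM in PSC4 (Rosa, A3 and B4). Abcc9, a subunit of potassium channels in mural cells, stood at 0.336, 2.77 and 3.37 CPM in PSC5, against 5.59, 0.0912 and 0 CPM in PSC4. For both, and for Barx1 above, the KO clones of PSC4 were near 0 while those of PSC5 were not. The interaction on the log2 scale was 6.86 for Rgs2 (DESeq2 adjusted p = 1.77e-05) and 7.26 for Barx1 (0.000368), in 1 Rosa library and 2 KO clones per line.

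Differences between the lines also followed chromosomes. Among 10728 protein-coding genes with a mean log2 CPM of at least 2, 11.16% did not overlap with PSC5 above and 10.08% with PSC5 below. On chromosome 19 the median log2 fold change was -0.279 and 35.6% of 396 genes were below without overlap. On chromosome 15 the median was 0.214 and 32.4% of 435 genes were above, and on chromosome 11 it was 0.186 with 30.9% of 877 genes above. Single clones had shifts of their own that were repeated with other organoid lines. Clone B4 deviated on chromosome 10 by 0.39 with T6-LOH, 0.39 with T12-LOH and 0.40 with T69A, and clone A3 on chromosome 16 by 0.31, 0.28 and 0.31. Clone D4 was low on chromosome 13, at -0.42. Genes described earlier lie on these chromosomes, and those given here are examples. Hoxb7, Igf2bp1 and Ccl5 on chromosome 11 and Arc and Enpp2 on chromosome 15 were above, the more frequent direction there. Gda on chromosome 19 was below, also the more frequent direction. Cxcl16 on chromosome 11, and Hoxc8 and Hoxc10 to Hoxc13 on chromosome 15, were below, against that direction. Only RNA was measured.

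**Figure D5:**
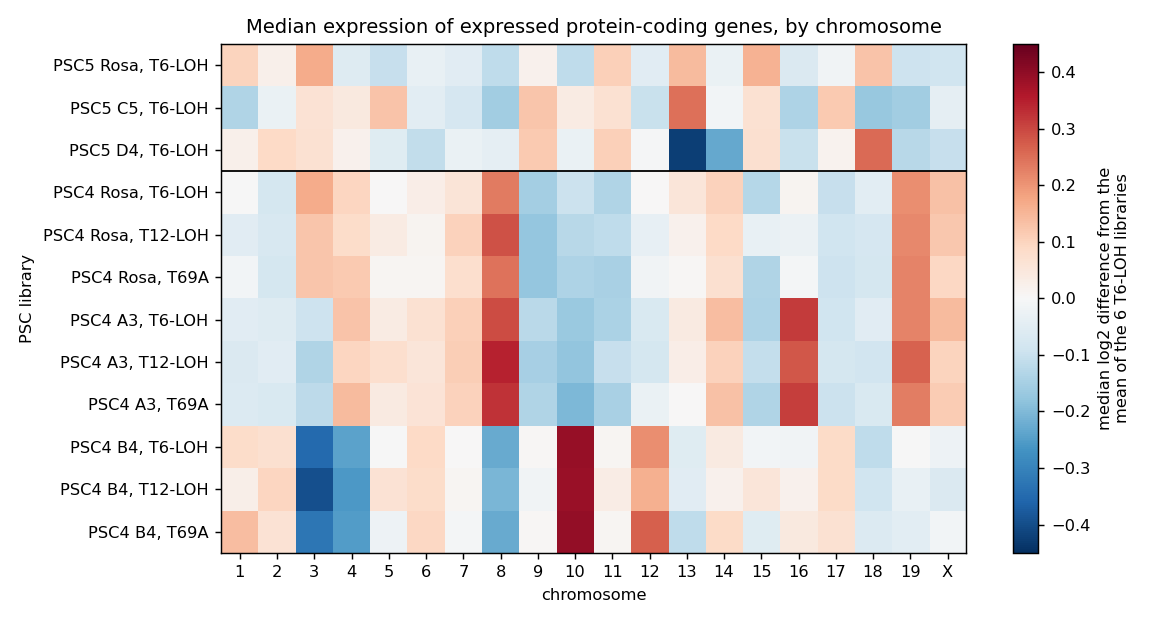
Median log2 difference from the mean of the 6 T6-LOH libraries, over expressed protein-coding genes of each chromosome (columns), in the 3 PSC5 libraries (top) and the 9 PSC4 libraries (below the line). Rows of 1 PSC4 clone with different organoid lines look alike, with B4 high on chromosome 10 and A3 high on chromosome 16, and the PSC5 libraries are all low on chromosome 19.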

How the data were processed

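RNA-seq of 23 mouse libraries was used as far as it bears on PSC5 and PSC4 cells: the 6 PSC-fraction libraries with T6-LOH, the other 6 PSC libraries and the 6 organoid libraries of the same co-cultures. RNA was extracted with TRIzol and a PureLink column, per the labels' protocols. Each deposited file gives, per transcript, an estimated count (expected count) and a TPM value. Per the submitters' processing notes, the authors used Salmon 1.9.0 and build GRCm39 (mm39). The sources used here do not name the library kit, the strand setting or the transcript set, so reads of overlapping or antisense genes may not be told apart. Estimated counts were summed per gene through GENCODE M21 identifiers (used for names, chromosome and gene order), rounded to whole numbers and scaled to CPM. Deposited TPM values were summed likewise. Transcripts without a match held 0.374 to 0.427% of counts in the 6 libraries and were left out. No column belongs to other samples.

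The members and gene lists were chosen with earlier results of these data known, so list counts are descriptions. The test was edgeR 4.0.16 in R 4.3.3 (TMM, filterByExpr, robust quasi-likelihood test, line and genotype as terms), with Benjamini-Hochberg adjustment over all tested genes and a threshold of 0.05. An adjusted p is from this fit unless DESeq2 1.42.0, limma 3.58.1 or the 12-library fit is named. The standard error is the log2 fold change divided by the square root of F. The edgeR, DESeq2 and limma fits of the lines, and the interaction by edgeR and DESeq2, were run on simulated counts with known folds. Those counts had the same dispersion for all genes and no clone effect. They therefore cannot show how the fits behave when libraries of a clone are correlated. Fits with other filters, normalizations or subsets of libraries were not simulated. Counting intervals and floors cover counting error only.

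Named genes are Egfr, the genes past the threshold without overlap, up to 6 members of each of the 36 lists with the smallest p, and a few fixed markers. Because 2 genes passed, a rule was added after values were seen: per direction the 12 genes with the smallest p and the 8 of highest CPM that did not overlap and differed at least 2-fold, and the genes called by limma with clone or by the DESeq2 interaction. Hoxa10, Hoxb9, Hoxc10, Oas2, Isg15, Ifit3, Irf7, Tap1, Ifnb1, Ifna4 and Col3a1, and members listed by name only, were also chosen after their values were seen. Some genes that the rules name are not reported here.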

Additional observations from a re-analysis of the deposited data

How the results depend on the processing

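The number of genes past the threshold depended on the tool and on the libraries. Against 2 higher and 0 lower in PSC5 by edgeR, DESeq2 called 361 and 245, edgeR without a filter on low counts 26 and 21, edgeR on 12 PSC libraries 62 and 48, limma with clone as a random effect 4 and 3, and the KO libraries alone 0 higher. Leaving out 1 library at a time gave 0 to 3 higher and 0 to 1 lower. The interaction gave 0 genes by edgeR, 14 by DESeq2 and 1 without the filter, and the causes were not tested. Over the 112 genes open to naming with a fit, 1730 of 1896 values under alternatives kept their direction and side of the threshold, 148 passed it, 10 no longer passed it and 8 turned direction, all for Pdgfrb and Col3a1, which passed in no fit. The log2 fold change of Pdgfrb was -0.011 by limma voom, -0.024 with clone as a random effect and -0.143 in KO libraries, and -0.211 to 0.319 with 1 library left out, and that of Col3a1 -1.21 to 0.443. With 1 library left out, counts chosen after seeing the data ranged from 9 to 33 interferon-stimulated genes apart above (33 without PSC5 D4, 27 without PSC4 Rosa), 2 to 13 epithelial markers apart below (3 without PSC5 Rosa, 2 without PSC4 Rosa), and 427 to 628 genes apart above (628 without PSC4 Rosa) and 306 to 479 below (428 without PSC5 Rosa, 479 without PSC4 B4). No paired analysis was possible because no replicate number is shared between the lines. The 3 residual degrees of freedom, the 1 parent per line and genes with few counts limit what these libraries can show.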
